A study of Homo sapiens with 2 samples.

Results

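The SR proteins and the heterogeneous nuclear ribonucleoproteins (hnRNPs) were examined in HEK-293 cells, which derive from human embryonic kidney, after transfection with a miR-204 mimic. Members were all array probes, other than controls, whose gene name in the files is SFRS followed by a number or begins with HNRP or HNRNP. This gave 38 of 30484 gene names and 80 of 41000 probes, of which 15 were SFRS genes with 24 probes and 23 were hnRNP genes with 56 probes. These are older symbols, and all 38 names were matched to a current symbol in RefSeq (SFRS1 is now SRSF1 and HNRPA1 is HNRNPA1). The rule uses the names alone and no measured value, although the families were picked with earlier results of these data known.

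HEK-293 cells received 75 nM of either the miR-204 mimic or scrambled oligos, and RNA was taken after 48 h. Both RNAs were hybridized together on a 2-colour Agilent whole genome array, with the control RNA in Cy3 and the miR-204 RNA in Cy5 on the first array, and with the dyes exchanged on the dye-swap array. No separate transfection is named for the second array, so the 2 arrays were counted as 1 replicate, and no test between the conditions was possible. Each value below is a log2 ratio of miR-204 over control on 1 array after quantile normalization of the 4 channels, and a mean is over the 2 arrays.

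SR proteins carry RNA recognition motifs and a domain rich in arginine and serine, bind exonic enhancers and help to recruit the spliceosome to nearby splice sites. The hnRNPs coat newly made transcripts, and many of them act against SR proteins by masking exons or splice sites. Members of both groups are abundant nuclear proteins in dividing cells, and many of their genes are themselves alternatively spliced, which also produces transcripts that are degraded. A miRNA acts mainly by pairing its seed, bases 2 to 8, with sites in target transcripts and lowering their stability or translation.

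The transfected agent is shown first because the design rests on it. The miR-204 gene lies on the minus strand of chromosome 9, with the 5p arm at chr9:70810031-70810052 and the 3p arm at chr9:70809993-70810013 of GRCh38.p14 in RefSeq. The labels name a miR-204 mimic without its arm. Both mature sequences are given 5′ to 3′ with the seed in capitals, and the seeds of the arms differ.
hsa-miR-204-5p: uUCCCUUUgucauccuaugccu
hsa-miR-204-3p: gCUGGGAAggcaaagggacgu
Probe and transcript sequences were not analysed here, so no seed match is given for any member.

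Of the 80 probes, 75 were counted. A probe was counted where either RNA gave a signal well above background with both dyes, and for 74 of the 75 this was so of both RNAs. The counted probes covered 36 gene names, with 23 SFRS and 52 hnRNP probes. Each had 1 spot per array and none was saturated. The probe of HNRNPG-T (now RBMXL2), a testis-expressed relative of hnRNP G, carried an outlier flag and was left out. Its processed signals were 4.52 in the control and 3.89 in the miR-204 sample on the first array, and 170324 and 211315 on the dye-swap array. The probe of the pseudogene HNRPA1P5 and 1 probe each of HNRPCL1, HNRPM and SFRS12 were too dim to be counted, the other probe of each of these last genes being counted. The HEK-293 markers VIM, KRT8, KRT18, NEFL and NEFM were each detected by a probe in every channel, while PAX2 was detected in none. Among markers of cells that should be absent, PTPRC, CD3E, ALB and MYH7 were detected in none, and GFAP and MYOD1 each had 1 dim probe detected in all 4.

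No SFRS or hnRNP probe was lower or higher by 2-fold in the mean of the arrays with the same sign on both. Over all 25270 counted probes, 0.518% were lower and 0.123% were higher by this rule. At 1.5-fold, 9 of the 75 probes (12%) were lower and 0 were higher, against 2.62% lower and 1.27% higher of all counted probes. Of the 9, 3 are HNRPA3 probes that overlap one another by 20 and 22 bases, and with these taken as 1 probe the count was 7 of 73 (9.59%). The remaining 6 belonged to SFRS4, HNRPA0, HNRPUL2, HNRPU, HNRPH3 and HNRPA2B1.

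The middle of the group lay near 0. The median mean log2 ratio was 0.04 over the 75 probes and 0.0015 over all counted probes. Below 0 on both arrays were 19 probes (25.3%; 23.2% of all counted probes), and above 0 on both were 18 (24.0%; 24.2% of all). Opposite signs were found for 38 of the 75 members and for 13229 of all 25270 counted probes. The arrays differed in how widely the members were spread. On the first array their ratios ran from -1.45 to 1.04 with an SD over probes of 0.62, against 0.45 over all counted probes. On the dye-swap array they ran from -0.82 to 0.52 with an SD of 0.23, against 0.33 over all. Lower by 2-fold on the first array alone were 9 members (12%; 2.87% of all), whose dye-swap ratios lay between -0.57 and 0.13. The gap between the arrays had a median of 0.44 over members and 0.33 over all counted probes. Across the 75 probes Pearson's r between the arrays was 0.27 and Spearman's rho was 0.15. Across all 25270 counted probes they were -0.03 and -0.05, so that the arrays' ratios were hardly correlated. These are given as a description, since the probes share both hybridizations and some share a transcript. Apart from SFRS4, the lower probes thus rested mostly on the first array.

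**Figure D1:**
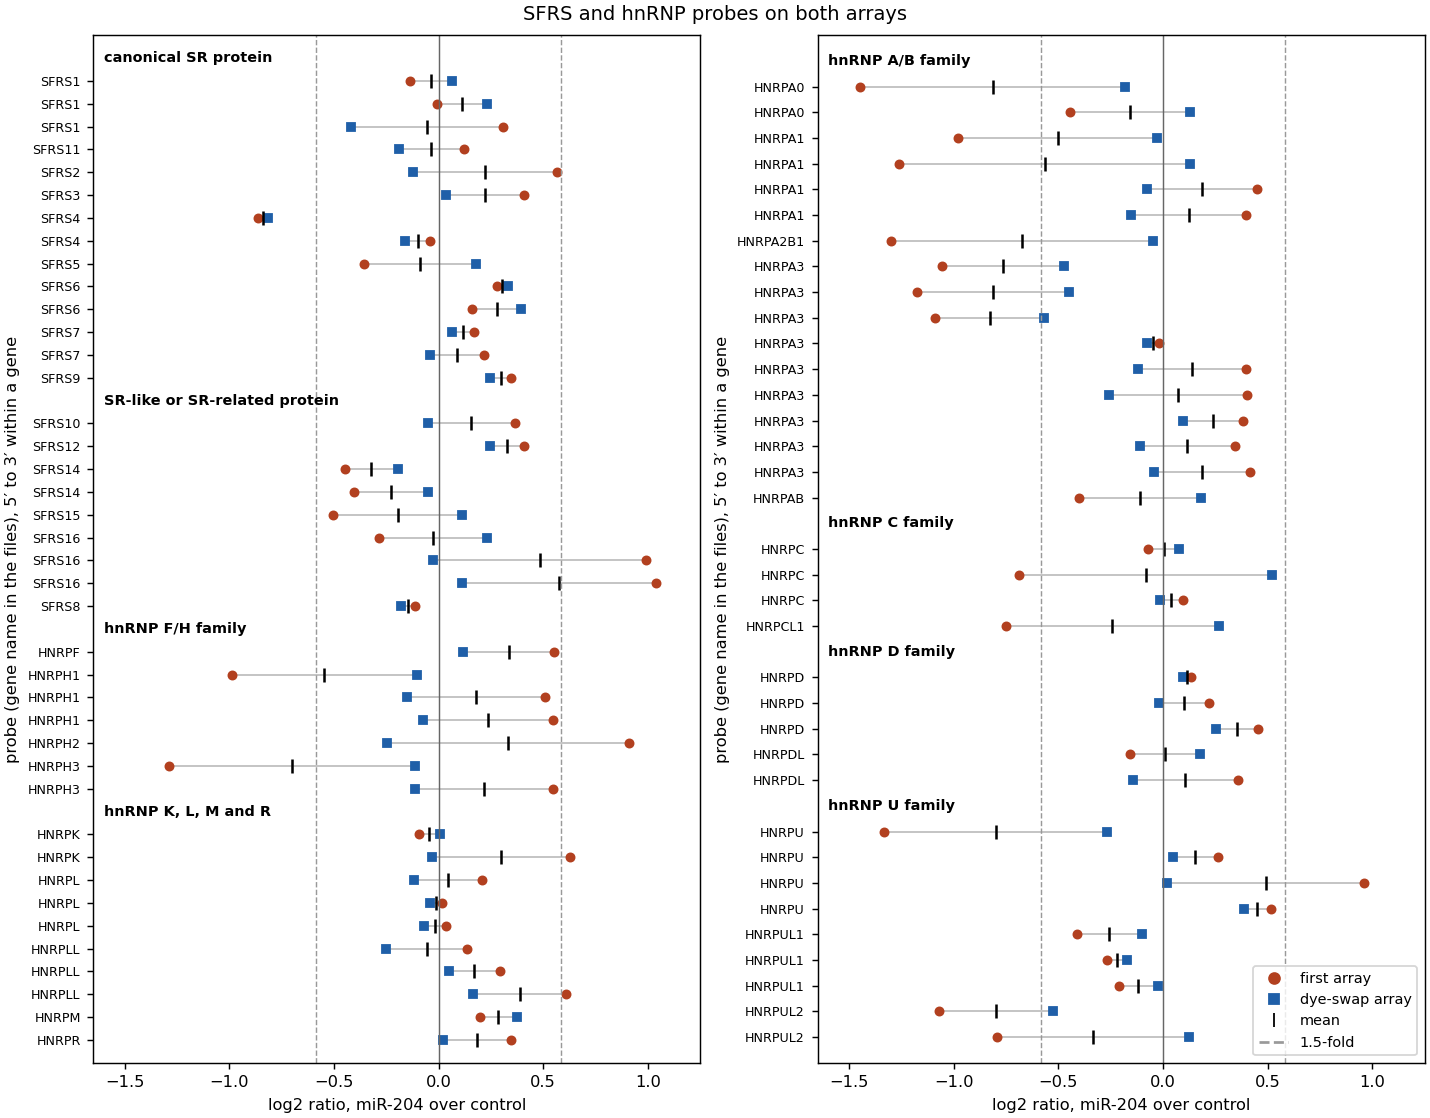
Log2 ratio of miR-204 over control (horizontal axis) for the 75 counted SFRS and hnRNP probes, one per line, ordered within a gene from 5′ to 3′ and grouped by family. Circles are the first array, squares the dye-swap array, bars their mean, and dashed lines mark 1.5-fold; 9 means lie left of the lower line, none lies right of the upper one, and the second HNRPC line is a probe placed on another chromosome.

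Among the canonical SR proteins, 14 probes for 9 genes were counted, and their median mean log2 ratio was 0.10. SFRS4, which has a long arginine- and serine-rich domain, had the lowest mean of the counted members in this setting. Its probe A_24_P148086 at chr1:29353873-29353932 of hg18 had processed signals of 260 in the control and 142 after miR-204 on the first array, and of 203 and 116 on the dye-swap array. Both arrays were lower and nearly the same, with log2 ratios of -0.86 and -0.82 and a mean of -0.84. This was the 1 member probe that passed 1.5-fold on each array by itself. The share of all counted probes that did so was not worked out. With loess normalization of the mean spot signals its mean no longer passed 1.5-fold, at -0.54 after normexp and -0.57 without background correction. The other SFRS4 probe, A_23_P126197, lies 6787 bases further towards the 3′ end of the gene at chr1:29347086-29347145. Its signals were 9843 and 9616 on the first array and 6582 and 5927 on the dye-swap array, giving log2 ratios of -0.04 and -0.16. The lower value of SFRS4 was therefore seen with 1 of its 2 probes.

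The other canonical SR genes were close to 0 or slightly above it. SFRS6, an activator of exon inclusion, was higher on both arrays with both probes, at log2 ratios of 0.28 and 0.33 for one and 0.16 and 0.39 for the other. SFRS9 had 0.35 and 0.25. SFRS3, the smallest SR protein, had 0.41 and 0.04, and the brighter SFRS7 probe had 0.17 and 0.06. SFRS1, the founding member that both activates splicing and shuttles to the cytoplasm, had -0.01 and 0.23 with its brightest probe. SFRS2, which stays in nuclear speckles, had 0.56 and -0.12, and SFRS5 had -0.36 and 0.18. SFRS11 had 0.12 and -0.19. For SFRS1, SFRS2, SFRS5 and SFRS11 the sign differed between the arrays, so that neither direction can be given.

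The SR-like and SR-related proteins were counted with 9 probes for 6 genes, of which none passed 1.5-fold, and their median was -0.03. SFRS16 (now CLASRP), which binds CLK kinases that phosphorylate SR proteins, gave the highest mean of all members. Its 3′-most probe A_23_P78509 had signals of 3564 in the control and 7205 after miR-204 on the first array, and of 2878 and 3138 on the dye-swap array. The log2 ratios were 1.04 and 0.11 with a mean of 0.57, so that the height came from the first array. SFRS12 (SREK1), a regulator that modulates other SR proteins, had 0.41 and 0.24. SFRS14 (SUGP2), a G-patch protein, was below 0 on both arrays with both probes, its brightest probe having -0.45 and -0.20. SFRS8 (SFSWAP), a homologue of the fly suppressor of white apricot, had -0.12 and -0.18. SFRS10 (TRA2B), the homologue of the fly sex determination factor transformer-2, had 0.36 and -0.05. SFRS15 (SCAF4), which binds the tail of RNA polymerase II, had -0.50 and 0.11.

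The hnRNP A/B family, RNA-binding proteins best known for repressing exons, held 5 of the 9 lower probes among its 17 counted probes, and its median mean log2 ratio was -0.11. HNRPA2B1 had 1 probe, A_24_P3973 at chr7:26199441-26199500. Its signals were 4118 in the control and 1668 after miR-204 on the first array, and 2323 and 2254 on the dye-swap array. The log2 ratios were -1.30 and -0.05, so the mean of -0.67 came almost wholly from the first array. HNRPA0, which binds AU-rich elements, had its 5′ probe A_24_P371670 at signals of 458 and 166 on the first array and of 205 and 181 on the dye-swap array. The log2 ratios were -1.45 and -0.18 with a mean of -0.81, while its 3′ probe, 835 bases away, had -0.44 and 0.13. HNRPAB had -0.40 and 0.18 with its only probe.

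HNRPA3 was the member with the most probes, 9 along 10791 bases of chromosome 2, and they fell into separate ranges by position. The 3 probes at the 5′ end, A_24_P488586, A_24_P488588 and A_24_P269895, had log2 ratios of -1.05, -1.17 and -1.09 on the first array and of -0.47, -0.45 and -0.57 on the dye-swap array. For A_24_P269895, at chr2:177788575-177788634, the signals were 1837 in the control and 847 after miR-204 on the first array, and 1314 and 892 on the dye-swap array. The next probe, A_32_P159347, starts at position 177792274 and had -0.02 and -0.08. The 5 probes after it lay between 0.34 and 0.42 on the first array and between -0.26 and 0.09 on the dye-swap array. The 5′ probes did not overlap in ratio with the others on either array, and they share bases with one another, so that they are not 3 independent readings.

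HNRPA1, an abundant splicing repressor that also shuttles to the cytoplasm, showed the same order on the first array alone. Its 5′ probes A_24_P517901 and A_32_P189803 had log2 ratios of -0.98 and -1.26 there, and its 3′ probes A_32_P42197 and A_24_P454313 had 0.45 and 0.40. On the dye-swap array the same probes had -0.03 and 0.13, then -0.08 and -0.15. On that array the 5′ probes were thus not below the 3′ ones. The HNRPA1 transcript has many processed pseudogenes in the genome, and how far these probes also bind such copies or related family members is not known from the files.

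The hnRNP U family, which includes the nuclear scaffold protein HNRPU, held 2 of the 9 lower probes among 9 counted, with a median of -0.22. The 5′-most HNRPU probe A_24_P171110, at chr1:243094114-243094173, had signals of 366 in the control and 145 after miR-204 on the first array, and of 230 and 192 on the dye-swap array. Its log2 ratios were -1.33 and -0.27. The 3 probes towards the 3′ end were above 0 on both arrays, at 0.26 and 0.05, at 0.96 and 0.02, and at 0.52 and 0.39. The 4 means in gene order were -0.80, 0.16, 0.49 and 0.45, the widest range of any member gene at 1.29. HNRPUL2, a paralogue of HNRPU, had its 5′ probe A_24_P917449 at -1.07 and -0.53 and its 3′ probe at -0.79 and 0.12. The 3′ probe was dim, with signals of 58.6 and 33.9 on the first array and of 33.6 and 36.1 on the dye-swap array. The mean of that 5′ probe did not pass 1.5-fold with loess either, at -0.55 after normexp and -0.56 without background correction. HNRPUL1 was below 0 on both arrays with all 3 probes, with means from -0.26 to -0.12.

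The hnRNP F/H family binds G-rich sequences near splice sites, and 1 of its 7 counted probes was among the 9. The 5′ probe of HNRPH3, A_24_P338187, had signals of 3711 in the control and 1518 after miR-204 on the first array, and of 1893 and 1745 on the dye-swap array, with log2 ratios of -1.29 and -0.11. Its 3′ probe A_23_P115824, 1672 bases away, had 0.55 and -0.11. The probes thus stood far apart on the first array and at the same value on the other. HNRPH1 had -0.99 and -0.11 with its 5′-most probe, then 0.51 and -0.15, and 0.54 and -0.07 with the 2 probes at the 3′ end. HNRPF had 0.55 and 0.12 with its only probe. HNRPH2 had 0.91 and -0.25 with its only probe, so that its sign differed between the arrays.

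The remaining families held no probe past 1.5-fold. HNRPD, which binds AU-rich elements and destabilizes mRNA, had its highest probe A_24_P123245 at 0.46 and 0.25, and its brightest probe at 0.22 and -0.02. HNRPLL, known for controlling CD45 splicing in lymphocytes, had its highest probe at 0.61 and 0.16, from dim signals of 41.2 and 62.4 on the first array and of 35.4 and 39.1 on the dye-swap array. HNRPK, which binds C-rich sequences through KH domains, had 0.63 and -0.03 with its brightest probe. HNRPM had 0.20 and 0.37, and HNRPR had 0.35 and 0.02. HNRPL, which binds CA-rich RNA, had 0.03 and -0.07 with its brightest probe, and HNRPC, which binds uridine tracts, had -0.07 and 0.08. Another HNRPC probe, A_24_P178423, is placed by the files at chr2:190497060-190497121, away from the HNRPC gene on chromosome 14, and had -0.69 and 0.52.

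**Figure D2:**
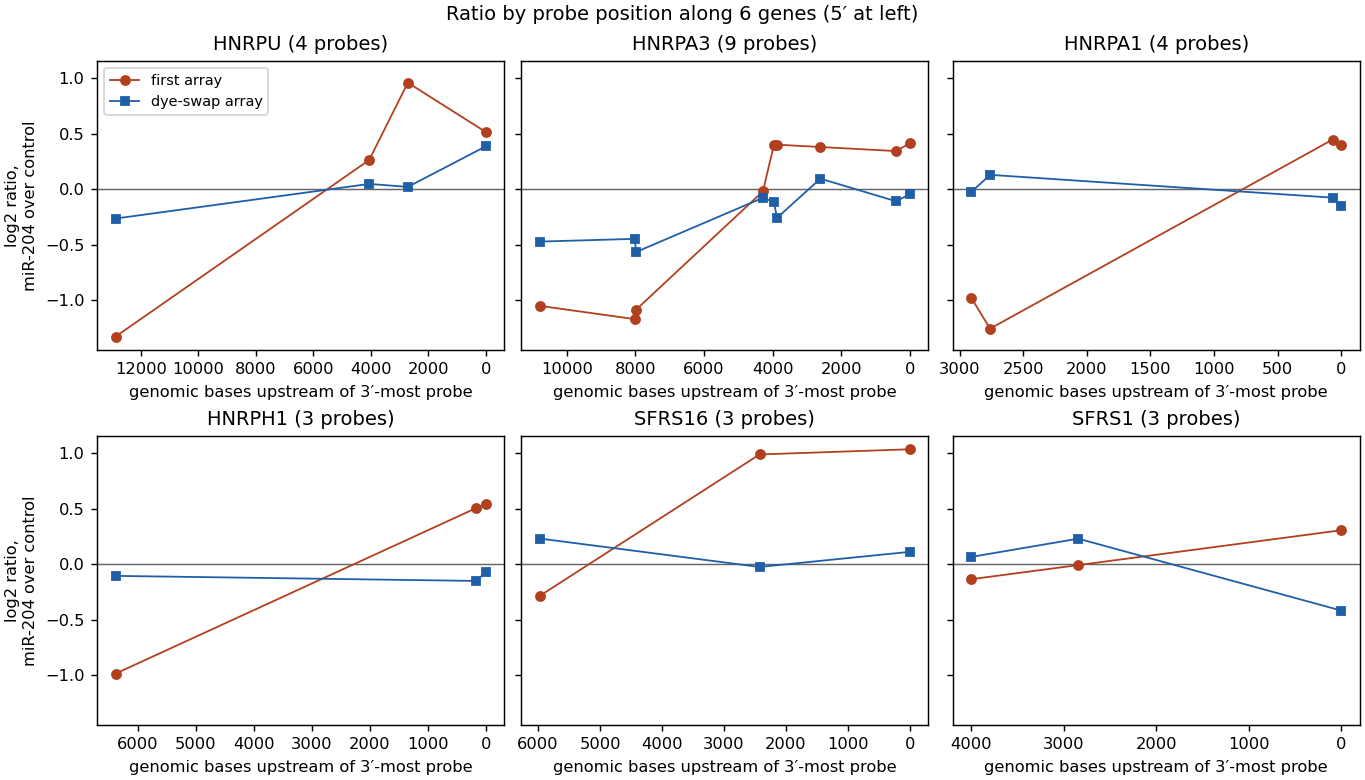
Log2 ratio of miR-204 over control (vertical axis) against the distance in genomic bases from the 3′-most probe (horizontal axis, 5′ at the left) for the counted probes of HNRPU, HNRPA3, HNRPA1, HNRPH1, SFRS16 and SFRS1, with circles for the first array and squares for the dye-swap array. On the first array the 5′-most probe is below the 3′-most one in all 6 genes, and on the dye-swap array in HNRPU, HNRPA3 and, by 0.03, HNRPH1.

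Since the lower probes often lay at the 5′ end of a gene whose other probes were not lower, the 5′-most and 3′-most probes of each gene name were compared over the whole array. This comparison was chosen after the values were seen. It used probes detected in every channel, with positions on hg18 from the files and distances that include introns, and 20 member gene names and 4370 gene names in all had such a pair. Of the 7 gene names with a probe lower by 1.5-fold, 6 had a pair, and in all 6 the 5′-most probe was among the lower ones while the 3′-most probe was in none. The name without a pair was HNRPA2B1, which has 1 probe. The 6 names had themselves prompted the comparison. How often the same held over all gene names with a lower probe was not worked out.

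On the first array the 5′ probe had the lower ratio in 18 of the 20 member gene names (90%), against 72.3% of all gene names. These were 13 of 14 hnRNP and 5 of 6 SFRS names, and the exceptions were HNRPL and SFRS6. The median 5′ minus 3′ difference in log2 ratio was -0.48 over the member names and -0.21 over all. The difference was at least 2-fold in 7 of them (35%; 5.63% of all), namely HNRPU, HNRPH3, HNRPH1, HNRPA3, HNRPA1, SFRS16 and HNRPA0. The 5′ probes had a median log2 ratio of -0.35 and the 3′ probes one of 0.33, against -0.12 and 0.11 over all gene names. The medians lay on either side of 0 in both sets, but not the probes of every gene. In SFRS4, for example, both were below 0, and in HNRPD both were above it.

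On the dye-swap array the 5′ probe was lower in 13 of the 20 names (65%; 51.6% of all), and the median difference was -0.06, against -0.01 over all gene names. Both arrays had the 5′ probe lower in 11 of the 20 names (55%; 34.8% of all). In 6 of these (30%; 4.9% of all) the mean difference was also at least 1.5-fold. They were HNRPU at -1.25, HNRPA3 at -0.95, HNRPH3 at -0.92, HNRPH1 at -0.78, SFRS4 at -0.74 and HNRPA0 at -0.66. All but HNRPH1 had a probe lower by 1.5-fold and were thus among the names that prompted the comparison. In HNRPU, SFRS4 and HNRPA3 the dye-swap array by itself gave -0.65, -0.66 and -0.43, whereas in HNRPH3 and HNRPH1 it gave -0.003 and -0.03. The largest difference was that of HNRPU, and 0.0915% of all gene names were as low or lower. No test of the member names against the rest was made.

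**Figure D3:**
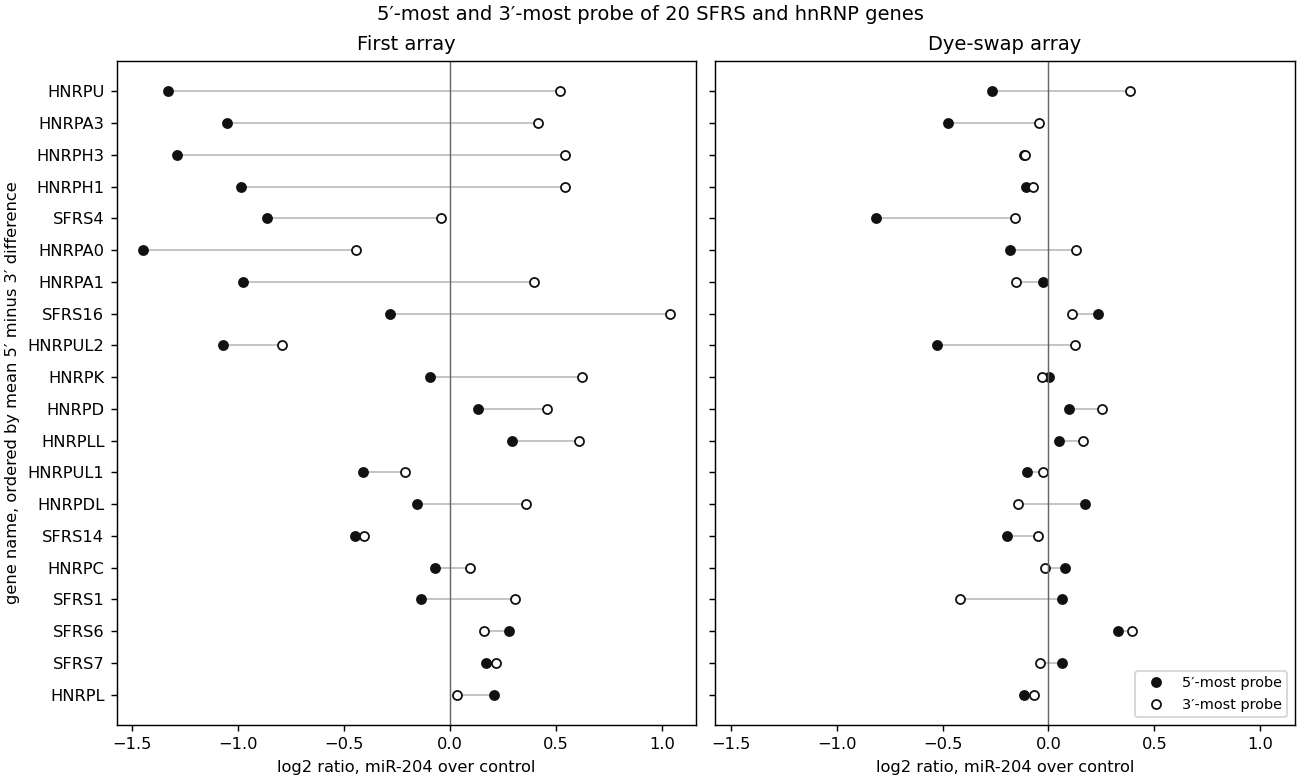
Log2 ratio of miR-204 over control (horizontal axis) of the 5′-most probe (filled) and the 3′-most probe (open) of the 20 SFRS and hnRNP gene names with a pair, on the first array (left) and the dye-swap array (right), ordered by the mean difference. The filled point is to the left in 18 names on the first array and in 13 on the dye-swap array.

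The difference along a gene was not restricted to these families. Over all gene names the median 5′ minus 3′ difference on the first array was -0.05 for probes 60 to 300 bases apart, -0.15 for 300 to 1000, -0.23 for 1000 to 3000, -0.24 for 3000 to 10000 and -0.31 beyond that. On the dye-swap array these medians lay between -0.06 and 0.05. The median distance was 3993 bases in the member names and 3240 in all, so the members' pairs were somewhat further apart. The first array, on which the miR-204 RNA carried Cy5, showed this order along the genes in both sets more than the other did. The probes of a pair also differed in signal. The 5′ probe was much dimmer than the 3′ one in HNRPA1, HNRPU, SFRS16 and SFRS4, and brighter in SFRS1, SFRS7 and HNRPLL. Whether the dye, the signal or the distance between the probes had a part in the members' 5′ values was not tested. With the 3′-most counted probe of each of the 36 gene names alone, the count lower by 1.5-fold was 1, and the median mean log2 ratio was 0.14. The 1 was the HNRPA2B1 probe, the only one of its gene name. Over all counted probes 2.62% were lower by 1.5-fold and the median was 0.0015. For the 3′-most probes of all gene names neither value was worked out.

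**Figure D4:**
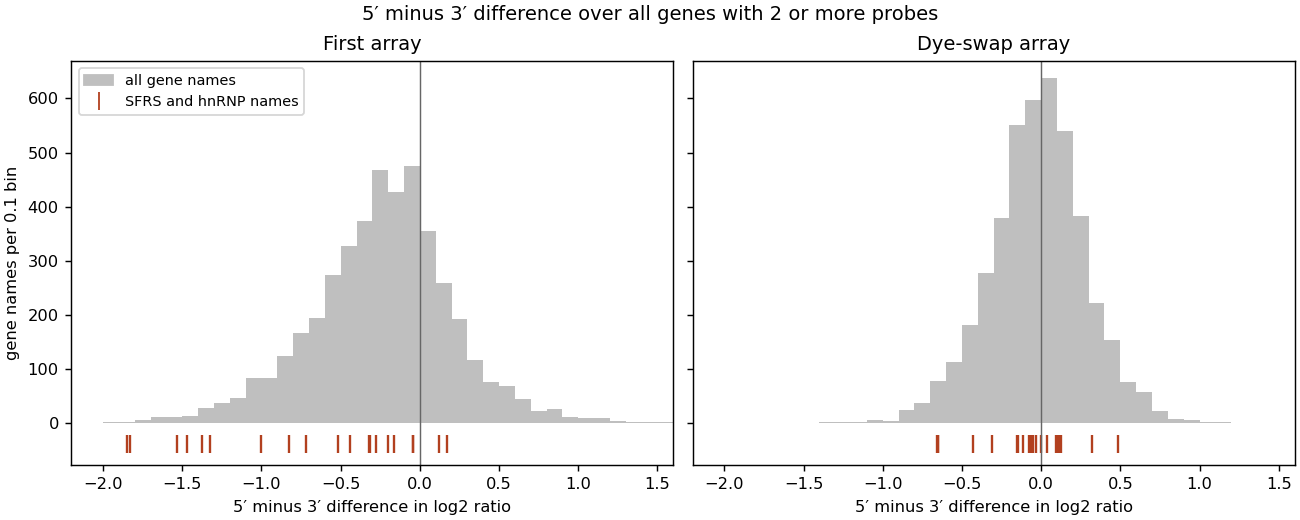
Histogram of the 5′ minus 3′ difference in log2 ratio (horizontal axis) over the 4370 gene names with a pair, as gene names per bin (vertical axis), with red ticks below for the 20 SFRS and hnRNP names, on the first array (left) and the dye-swap array (right). On the first array all names centre on -0.21 and the ticks reach -1.85, and on the dye-swap array the ticks lie between -0.66 and 0.48.

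Genes of the same pathway under other symbols were read in the same way. Over 5 lists, 225 probes for 127 genes were counted, of which 0 passed 2-fold in the mean with the same sign on both arrays, 5 were lower by 1.5-fold (2.22%, near the 2.62% of all counted probes) and 0 were higher. Their median mean log2 ratio was 0.01. Among the SR protein kinases and phosphatase regulators none of 17 probes passed 1.5-fold, and their median was -0.01. Of 50 probes for SR-related proteins and splicing coactivators, 2 were lower. These were ACIN1, a component of the exon junction complex, with log2 ratios of -0.99 and -0.42, and CROP (now LUC7L3), a relative of a yeast U1 snRNP protein, with -1.14 and -0.27. Of 36 probes for hnRNPs under other symbols, the 1 lower probe was for RBMX (hnRNP G), with -1.03 and -0.17. Its signals were dim, at 65.9 in the control and 32.2 after miR-204 on the first array, and 43.1 and 38.0 on the dye-swap array. Of 50 probes for other RNA-binding regulators, the 1 lower probe was for RBM9 (now RBFOX2), a regulator of tissue-specific exons, with -0.93 and -0.29. Of 72 probes for core spliceosome proteins, the 1 lower probe was for DHX38, an RNA helicase of the spliceosome, with -1.15 and -0.03. As in the SFRS and hnRNP genes, the lower value was more marked on the first array in each of the 5.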

How the data were processed

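RNA of 2 arrays of 2 colours was analysed. The deposited processed signals are intensity values from the authors' Feature Extraction 9.5.3.1, already corrected for background and dye. The deposited log ratio is log10 of Cy5 over Cy3, and the authors' series table holds log2 ratios, quantile normalized and turned to miR-204 over control (correlations of 0.993 and 0.994 with the turned log ratio). Here, control spots and 128 probes with outlier flags were left out, spots of a probe were averaged, and log2 processed signals were quantile normalized over the 4 channels with limma 3.58.1 in R 4.3.3. Positions are those of the files (hg18), and the order along a gene follows their coordinate direction, which matched the RefSeq strand for 99.0% of 17765 probes. The arrays count as 1 replicate, so folds are without a test, and their number limits the precision of every value. The members and lists were chosen with earlier results of these data known. Named were probes past 1.5-fold, the 5 lowest and 5 highest of those that kept their sign, the 5 genes with the widest range over probes, and the brightest probe of every SFRS gene and of 11 hnRNP genes. The 2-fold calls and the 5′ against 3′ comparison were tested on simulated data, and the 1.5-fold calls were not. The changes put in for the 2-fold calls were 2 in log2, so changes near the 2-fold limit were not covered. Alternatives changed the background correction, normalization, filters, arrays, threshold, gene summary and test.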

Additional observations from a re-analysis of the deposited data

How the results depend on the processing

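With 1 replicate, nothing here measures the spread between cultures. No analysis paired by culture was made, because no separate transfection is named for the second array. The absence of members past 2-fold held under every alternative except the first array alone. Leaving out 1 array in turn gave 0 to 9 members lower and 0 to 1 higher past 2-fold, and 1 to 15 lower and 0 to 6 higher past 1.5-fold, with the upper ends on the first array alone. Of all 25270 counted probes, 724 were lower and 194 higher past 2-fold on the first array alone. On the dye-swap array alone they were 208 and 77. For 1.5-fold on single arrays or on each array, no share over all counted probes was worked out. Lower past 1.5-fold were 9 members, and 1 when the fold had to be passed on each array, when the probes of a gene name were averaged, or with the 3′-most probes alone, an alternative chosen after seeing the data. The methods' t-test on the 4 channel values, not paired by array, left 1 of the 9 before adjustment and 0 after Benjamini-Hochberg adjustment. On the ratios within each array, limma left 7 and 0. Under 0.05 before adjustment were 2 of 75 members and 1604 of all 25270 counted probes with the t-test. With limma they were 7 and 1177. The 9 were already chosen by their mean and sign in the same values, so these counts are no separate support. These tests take the 2 arrays as replicates, so their p-values reflect the spread between the arrays and not that between cultures. Higher past 1.5-fold was 1 member in the series table (SFRS16) and 1 with no filter on signal (a dim SFRS12 probe), against 0. With loess 7 members were lower past 1.5-fold, and SFRS4 and HNRPUL2 were not, at -0.54 and -0.55 after normexp and at -0.57 and -0.56 without background correction. The 5′ probe was lower on the first array in 16 to 18 of 20 member names under the other background corrections and normalizations, and on the dye-swap array in 13 to 16. The first-array median ranged from -0.76 to -0.37. Under the other background corrections and normalizations, all 9 members lower past 1.5-fold stayed below 0. With 1 array left out they could not change sign, since the call needs the same sign on both. Other named probes could, as HNRPA1 A_32_P189803 did, with a mean of -0.57 and 0.13 on the dye-swap array alone.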
